A study of Homo sapiens with 4 samples.

Results

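m6A peaks of 10 well-known long noncoding RNA (lncRNA) genes were examined in MDA-MB-231, an established human cell line of triple negative breast cancer. The genes were taken by name, with earlier results of these data known: MALAT1, NEAT1, TUG1, NORAD, OIP5-AS1, KCNQ1OT1, SNHG1, GAS5, CYTOR and DANCR. Of these 10 genes, 4 had a peak in a list that names 10140 genes in all. The study performed m6A-seq on poly(A) RNA, with 2 input libraries and 2 libraries immunoprecipitated (IP) with an anti-m6A antibody. All 4 libraries carry the label shNS. Elsewhere in the study this name stands for a control shRNA. The treatment field of the IP libraries names YTHDC1, but their titles and protocol describe an m6A IP, and they were taken as such. The processed data are 1 combined peak list with 1 score per peak, so no value exists for a single library and no spread between replicates can be given. The score was taken as the p-value that the peak caller gave to the enrichment in IP over input, although it may be an FDR, since the header does not say which. A larger −log10 score is called a stronger peak. It is not a level of m6A, and how far it follows the abundance of an RNA was not tested.

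Long noncoding RNAs are transcribed and often spliced like mRNAs, but most act as RNA. Several of them stay in the nucleus, where they hold protein assemblies together, whereas others work in the cytoplasm or serve mainly as carriers of small nucleolar RNAs (snoRNAs) in their introns. N6-methyladenosine (m6A) is written on RNA in the nucleus within a short sequence context called RRACH, and nuclear lncRNAs such as MALAT1 are known carriers of this mark and known ligands of the nuclear reader YTHDC1.

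MALAT1, NEAT1, TUG1 and NORAD carried all of the peaks of the group. OIP5-AS1, KCNQ1OT1, SNHG1, GAS5, CYTOR and DANCR had none. The share with a peak was thus 4 of 10 genes (40.0%, 95% Wilson interval 16.8 to 68.7%, counting error only). Over all RefSeq lncRNA genes found in the gene table it was 694 of 5215 (13.3%), and over all protein-coding genes 8176 of 19153 (42.7%). The 10 genes were chosen as known, abundant RNAs and most annotated lncRNA genes are not abundant, so these shares are set side by side only as a description. The list gives no expression values.

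The 4 genes held 12 listed peaks, which became 10 after overlapping peaks of the same gene had been merged. Each lay in 1 block, and they ranged from 61 to 1135 bases with a median of 182.5 bases, against 211 bases over all merged peaks and 181 bases over those of lncRNA genes. The median score of the list was 5.2e-08, and 4 of the 10 merged peaks were as strong as this or stronger. By gene, the strongest peak reached the median in 3 of the 4. The share was 60.7% over all listed genes and 43.3% over the 695 listed lncRNA genes. It also differed by strand, being 42.1% for genes on the plus strand and 70.7% for those on the minus strand, and each member is therefore also compared with genes on its own strand below. MALAT1, NEAT1 and TUG1 are on the plus strand and NORAD is on the minus strand.

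**Figure D1:**
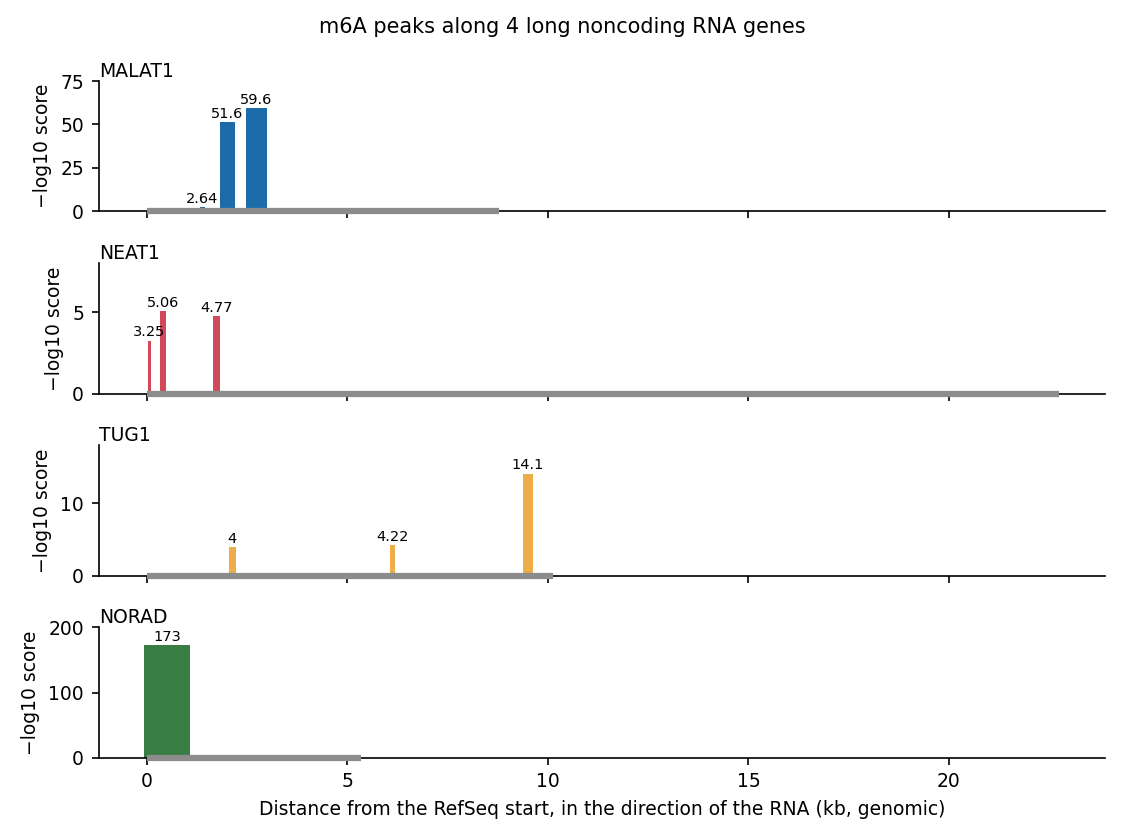
Merged m6A peaks along the 4 lncRNA genes with peaks, drawn as bars over the genomic span of each gene (grey line) from its RefSeq start. The x axis is the distance in kb in the direction of the RNA, and the y axis is the −log10 score, on a scale of its own for each gene. The NORAD peak (173) lies at the start, the MALAT1 peaks (2.64, 51.6 and 59.6) and the NEAT1 peaks (3.25, 5.06 and 4.77) lie in the 5′ part, and the strongest TUG1 peak (14.1) lies near the 3′ end.

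NORAD is an unspliced cytoplasmic RNA with many binding sites for the Pumilio proteins, which repress mRNAs, and it is known for protecting chromosome stability by holding these proteins back. It had the strongest peak of the group, a single peak of 1135 bases with a score of 1e-173 (ENSG00000260032.2, chr20:36049884-36051018, minus strand, −log10 score 173). The peak covered 1077 of the 5343 bases of the RefSeq span, or 20.2%, all of it at the 5′ end. Its other edge lay 4266 bases before the 3′ end, and this remaining part of the RNA had no peak. Of the 695 listed lncRNA genes, 13 (1.87%, NORAD included) had a score this strong, and 14 (2.01%) had a peak this long. The list gives no expression values, so these ranks do not compare levels of m6A. Among all listed genes a score this strong was less rare, at 9.32%, and it was 13.0% on the minus strand. No peak on the opposite strand overlapped it.

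The NORAD peak began 58 bases before the RefSeq start of the gene. The sequence around this start is printed because it is the only part of the strongest peak for which the reference tables hold sequence. It is the window from 250 bases before to 50 bases after the start (GRCh38.p14, chr20:36050911-36051210, minus strand, RefSeq), 5′ to 3′, with the 108 bases inside the peak in capitals.

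NORAD: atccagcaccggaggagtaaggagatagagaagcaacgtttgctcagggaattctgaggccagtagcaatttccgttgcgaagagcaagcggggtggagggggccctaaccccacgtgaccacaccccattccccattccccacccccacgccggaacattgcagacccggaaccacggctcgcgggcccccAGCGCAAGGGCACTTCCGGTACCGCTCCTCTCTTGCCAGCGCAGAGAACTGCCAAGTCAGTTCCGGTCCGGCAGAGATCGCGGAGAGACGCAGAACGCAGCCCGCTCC

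RRACH was searched as its 12 forms of 5 letters, which are A or G at each of the first 2 positions, then A, then C, and last A, C or T. The part of the window inside the peak held 1 of them in the direction of the RNA, a GAACT that begins 13 bases before the RefSeq start, and the 50 bases after the start held none. The whole window held 4 in the direction of the RNA and 2 on the other strand. Such matches are common, since 94.3% of 35116 promoter windows of 300 bases held 1 or more in the direction of the RNA and 99.5% on either strand. For the last 108 bases the share was 64.7%, and for the last 50 bases it was 40.8%. The sequence of the rest of the peak was not used here.

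MALAT1 is a long, mostly unspliced RNA of nuclear speckles, the bodies in which splicing factors are stored, and its 3′ end is protected by a triple helix after a tRNA-like RNA (mascRNA) has been cut off. Its peaks (ENSG00000251562.8, chromosome 11, plus strand) formed a cluster in the 5′ part of the gene. The first was a weak peak of 120 bases (chr11:65499065-65499184, score 0.0023, −log10 score 2.64). The second was 360 bases long and had a score of 2.5e-52 (chr11:65499573-65499932, −log10 score 51.6). The third was 539 bases long with a score of 2.5e-60 (chr11:65500202-65500740, −log10 score 59.6). Both strong peaks passed the list median and the first did not. They were separated by 269 bases and together ran over 1168 bases, while 388 bases lay between the first peak and the second.

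The peaks of MALAT1 covered 1019 bases, or 11.6% of its RefSeq span of 8779 bases. From the last of them it was 5776 bases to the 3′ end of the span, and mascRNA began 5377 bases after it. The long 3′ part of the RNA thus had no listed peak. The libraries were made from poly(A) RNA, and whether the RNA of this part was present for a call was not tested. TALAM1, an antisense RNA of the MALAT1 locus, runs from 65499312 to 65507432 in RefSeq and so lies opposite both strong MALAT1 peaks, but it had no peak of its own. Whether the annotation used for peak calling held TALAM1 was not checked.

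RefSeq gives MALAT1 a second start site downstream of the first (65497738), at 65499045. The first peak began only 20 bases after this second start, and the other 2 peaks began 528 and 1157 bases after it. Measured from there, the 3 peak midpoints lay at 1.07%, 9.48% and 19.1% of an RNA of 7472 bases, in place of 15.8%, 23.0% and 31.1% of the full span. No peak lay between both starts. The window at the second start (GRCh38.p14, chr11:65498795-65499094, plus strand, RefSeq) is printed because it holds the 5′ edge of the first peak, with its 30 bases inside the peak in capitals.

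MALAT1: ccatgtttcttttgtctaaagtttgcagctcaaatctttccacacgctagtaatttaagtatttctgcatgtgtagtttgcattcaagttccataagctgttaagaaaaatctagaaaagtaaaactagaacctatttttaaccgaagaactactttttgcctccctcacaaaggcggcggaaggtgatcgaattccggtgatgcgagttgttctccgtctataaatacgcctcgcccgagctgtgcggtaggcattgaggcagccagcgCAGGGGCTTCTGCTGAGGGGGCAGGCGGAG

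No RRACH form lay in the 30 bases inside the peak, and 25.9% of all promoter windows held 1 in the same 30 bases. The whole window held 3 in the direction of the RNA and 6 on the other strand. The remaining 90 bases of this weak peak, and the 2 strong peaks, lie beyond the windows for which sequence was used.

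Among the 3516 listed plus-strand genes, 267 (7.59%) were as strong as MALAT1 or stronger, and among all listed genes 22.8% did. Among the 217 listed plus-strand lncRNA genes, 20 (9.22%) did. In all of these 20 genes except MALAT1 itself, the strongest peak overlapped a minus-strand peak. When only the 96 plus-strand lncRNA genes whose strongest peak had no such partner were kept, MALAT1 had the strongest score of them all. This restriction was chosen after the values had been seen. The median −log10 score of these 96 genes was 4.07, against 5.72 over the 217.

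**Figure D2:**
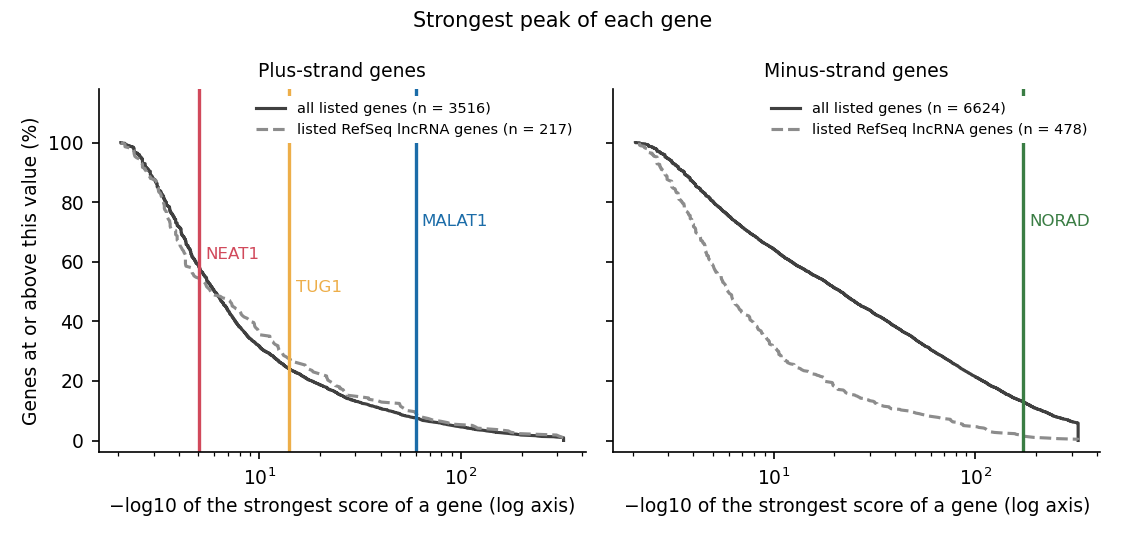
Share of genes (y axis, %) whose strongest peak reaches the −log10 score on the x axis (log axis), for plus-strand genes on the left and minus-strand genes on the right. Solid curves are all listed genes, dashed curves are listed RefSeq lncRNA genes, and vertical lines mark the members. On the plus strand MALAT1 (59.6) is crossed at 7.59% of all genes, TUG1 (14.1) at 24.1% and NEAT1 (5.06) at 58.0%, and on the minus strand NORAD (173) is crossed at 13.0%.

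NEAT1 is the RNA around which paraspeckles form, nuclear bodies made of the long isoform and proteins such as NONO and SFPQ. A short and a long isoform share the 5′ end. NEAT1 (ENSG00000245532.9, chromosome 11, plus strand) had 3 merged peaks, all of them weaker than the list median. The first was 61 bases long (chr11:65422834-65422894, score 0.00056, −log10 score 3.25). The second was 156 bases long (chr11:65423128-65423283, score 8.7e-06, −log10 score 5.06). The third was 184 bases long (chr11:65424446-65424629, score 1.7e-05, −log10 score 4.77).

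These peaks all lay close to the 5′ end of NEAT1. They began 36, 330 and 1648 bases after the RefSeq start, and the third ended 1831 bases after it, so that the following 20911 bases of the gene had no listed peak. The libraries were made from poly(A) RNA, and how much of the long isoform they held is not known. Whether the RNA of this stretch was present for a call was therefore not tested. The peaks together covered 401 of 22743 bases, or 1.76%. MIR612, a microRNA gene inside the NEAT1 span, begins 19829 bases after the last peak. With a strongest score of 8.7e-06, NEAT1 ranked low, since 72.3% of all listed genes, 58.0% of plus-strand genes and 56.7% of lncRNA genes had a score at or under it. Among the 96 plus-strand lncRNA genes whose strongest peak had no partner it stood higher, with 31 (32.3%) at or under its score.

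The second NEAT1 peak and the third each had 2 entries in the list. The list has a second part of 745 peaks, in which the chromosomes start again, and of these 235 (31.5%) overlapped a peak of the same gene in the first part. The second peak was listed as 65423133 to 65423283 with a score of 9.8e-06 and again as 65423128 to 65423277 with 8.7e-06, so that its edges differed by 5 and 6 bases. The third was listed as 65424449 to 65424629 with 1.7e-05 and again as 65424446 to 65424626 with 2.5e-05, with both edges shifted by 3 bases. The scores thus differed little between the 2 listings, and they were counted once each. None of the other members had a peak in the second part.

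TUG1 is a spliced RNA found in nucleus and cytoplasm and linked to gene silencing. RefSeq now gives it the protein-coding biotype because of an open reading frame, whereas the other 9 genes have the lncRNA biotype. TUG1 (ENSG00000253352.9, chromosome 22, plus strand) had 3 peaks spread over the gene. The first was 181 bases long with a score of 0.0001 (chr22:30971311-30971491, −log10 score 4.00). The second was 121 bases long with a score of 6e-05 (chr22:30975323-30975443, −log10 score 4.22). The third was 241 bases long with a score of 7.9e-15 (chr22:30978646-30978886, −log10 score 14.1), and only it passed the list median.

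The midpoints of the TUG1 peaks lay at 21.1%, 60.4% and 93.8% of the RefSeq span of 10131 bases, introns included, and only 509 bases lay between the third peak and its 3′ end. The strongest peak was therefore near the 3′ end, in contrast to MALAT1, NEAT1 and NORAD, whose strongest peaks had midpoints at 31.1%, 1.79% and 9.54% of the span. The peaks covered 543 bases in all, or 5.36% of the span. A score at or under that of TUG1 was reached by 46.0% of all listed genes and 24.1% of plus-strand genes.

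The third TUG1 peak was the only member peak with a partner on the opposite strand. The partner was a peak of 116 bases of ENSG00000269987 (chr22:30978733-30978848, minus strand), for which the gene table gives no other symbol. It lay wholly inside the TUG1 peak and took up 48.1% of it, and its score was 0.0012 (−log10 score 2.92). The ratio of the weaker to the stronger −log10 score was 0.207. Over the 332 opposite-strand pairs in which the shorter peak was fully covered the median ratio was 0.946, and 25 pairs (7.53%) had a ratio this low. The 2 scores of the TUG1 pair were thus more unequal than those of most pairs.

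**Figure D3:**
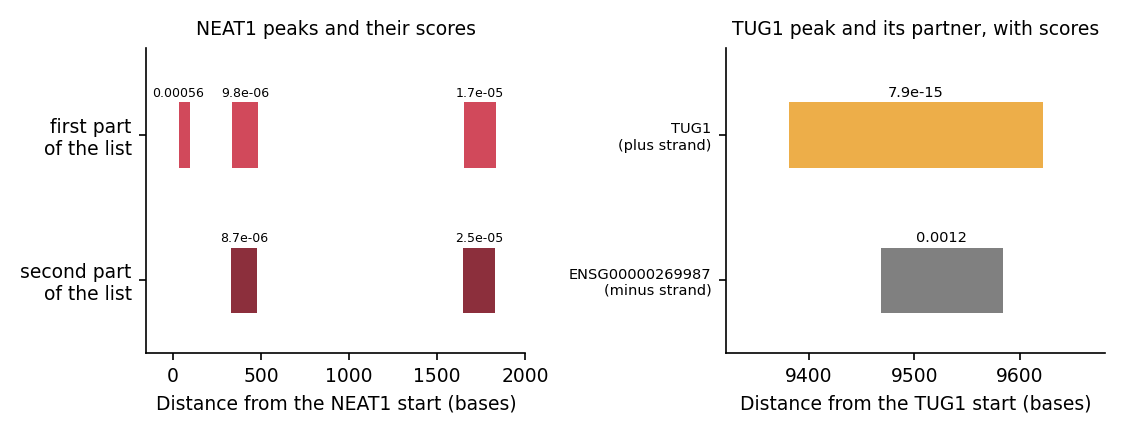
Left, the NEAT1 peaks as given in the first part of the list (upper row) and in the second part (lower row), by distance in bases from the NEAT1 start, with the score above each bar. Right, the third TUG1 peak (upper row, 241 bases, 7.9e-15) and its minus-strand partner (lower row, 116 bases, 0.0012), by distance in bases from the TUG1 start. The 2 NEAT1 listings differ by 3 to 6 bases, and the partner lies inside the TUG1 peak.

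With 1 of 10 merged peaks, opposite-strand partners made up 10.0% of the member peaks (95% Wilson interval 1.79 to 40.4%). The share was 17.7% over all merged plus-strand peaks and 7.04% over all minus-strand peaks. Among plus-strand lncRNA genes it was much higher, with 148 of 295 peaks (50.2%, 44.5 to 55.8%), against 110 of 898 peaks (12.2%, 10.3 to 14.6%) among minus-strand lncRNA genes. Of the 9 plus-strand member peaks, 1 had a partner. The intervals treat peaks as independent, which peaks of 1 gene are not. The strong peak of a neighbour lay just outside TUG1. MORC2, which is read away from TUG1 and was named after its values had been seen, had a peak of 989 bases with a score of 6.3e-75 (chr22:30967786-30968774, minus strand), and it ended 491 bases before the TUG1 start.

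Over the 10 merged member peaks, 8 had their midpoint in the first 50% of the gene span (80.0%, 95% Wilson interval 49.0 to 94.3%) and 1 in the final 10%. Over 969 peaks of 596 other listed lncRNA genes, 435 (44.9%, 41.8 to 48.0%) lay in the first 50% and 21.4% in the final 10%. For these other genes only peaks wholly inside the span were counted. The member peaks were all counted, among them the NORAD peak, which begins before its span, so the shares rest on unlike rules. The median midpoint was at 18.5% of the span for the members and at 59.4% for the other lncRNA genes. Peaks of 1 gene are not independent, and 3 genes gave 9 of the 10 member peaks, so the difference was not tested. Introns are part of the span, and a map of exons was not used here.

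**Figure D4:**
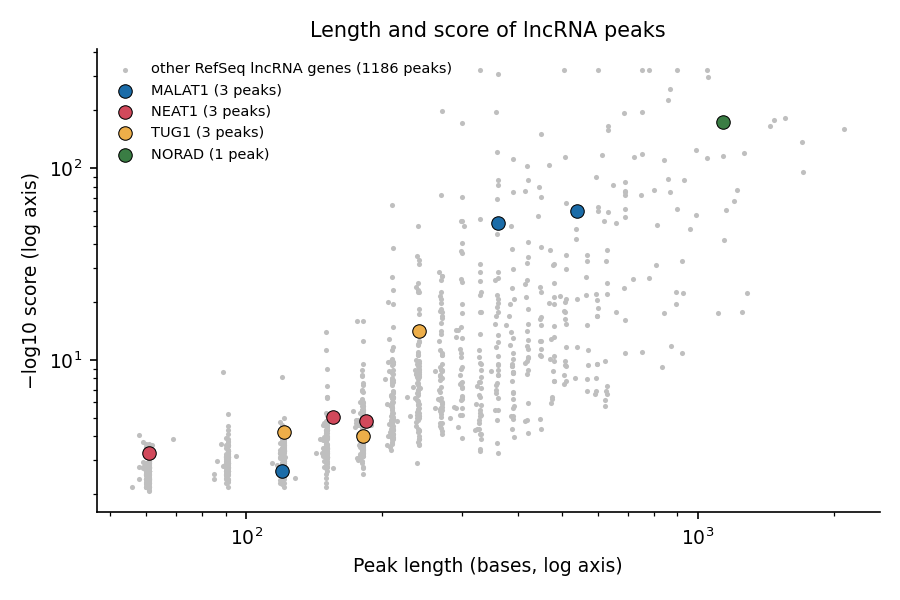
Length in bases (x axis, log axis) and −log10 score (y axis, log axis) of merged peaks, with 1 point per peak. Grey points are the peaks of other listed RefSeq lncRNA genes and coloured points are member peaks. NORAD (1135 bases, 173) and the 2 strong MALAT1 peaks (360 and 539 bases) lie apart from the NEAT1 and TUG1 peaks, which are 61 to 241 bases long.

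The 6 members without a peak also had no peak of any other gene inside their span. OIP5-AS1 (Cyrano), which controls the level of a microRNA, is a plus-strand gene of 30642 bases. The nearest peak of any gene, from NUSAP1 (score 5e-38), lay 19040 bases beyond it. OIP5, the gene on the opposite strand that overlaps its 3′ end, had a peak of 206 bases at its own 5′ end with a score of 7.9e-38 (chr15:41332386-41332591). This OIP5 peak coincided over all of its 206 bases with the NUSAP1 peak. KCNQ1OT1, an imprinted RNA that silences neighbouring genes and is transcribed antisense to KCNQ1, spans 91667 bases. It had no peak, KCNQ1 had none, and the nearest listed peak was 205525 bases away in TSSC4.

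SNHG1, GAS5 and DANCR are host genes of snoRNAs, and the spliced RNAs of SNHG1 and GAS5 are known to be unstable. Their spans of 3908, 5145 and 8304 bases held no peak, and the nearest peaks of other genes were 19927 bases from SNHG1, in STX5, and 114696 bases from DANCR, in USP46. SLC3A2, the neighbour of SNHG1, had 2 peaks (strongest score 4e-09). ZBTB37 and GAS5-AS1, the neighbours of GAS5, had none. Of the other neighbours on the list, EPB41L1 near NORAD (0.00025) and MORC2-AS1, antisense to MORC2 (1.9e-05), had 1 weak peak each, so that 4 of 8 neighbours had a peak. The MORC2-AS1 peak shared 177 of its 180 bases with a MORC2 peak of similar score (1.3e-05) on the other strand.

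CYTOR, an RNA linked to cell growth and migration in cancer, had no peak in its span of 66092 bases, and the nearest peak of another gene was 506224 bases away in KRCC1. CYTOR has a closely similar copy on the same chromosome, MIR4435-2HG, and reads of both can be hard to assign. MIR4435-2HG, which was looked up after the values had been seen, had 5 peaks on the minus strand, the strongest of 660 bases with a score of 1.6e-18 (chr2:111207462-111208121). The other 4 had scores from 7.9e-06 to 0.0019. Whether these peaks lie in the sequence that both genes share, and whether reads were assigned between them, was not tested. For all 6 genes, an RNA without m6A cannot be told apart from an RNA present at too low a level for a call. The list also names fewer plus-strand genes (3516) than minus-strand genes (6624). OIP5-AS1, CYTOR and DANCR are on the plus strand, and SNHG1 and GAS5 are on the minus strand. Whether the strand bears on the missing peaks was not tested.

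Other RNAs and proteins of the same pathways were taken from lists and are given by counts. Of 16 other snoRNA host genes, 4 had a peak (25.0%, Wilson interval 10.2 to 49.5%, counting error only). The share over all RefSeq lncRNA genes was 13.3% (694 of 5215), which lies inside this interval. The list was chosen with earlier results of these data known, so the shares are set side by side only as a description. The 4 host genes with a peak were SNHG8 (569 bases, 1e-35), SNHG7 (2 peaks, 1.6e-11), SNHG5 (3 peaks, 2.8e-08) and SNHG29 (3 peaks, 0.00068). The SNHG8 peak shared 541 bases with a PRSS12 peak of the opposite strand that had a score of 5e-34, and both SNHG7 peaks overlapped peaks of DIPK1B. The strongest score among the host genes thus belonged to a peak with a partner of nearly the same score, and whether both genes carry the mark was not tested.

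Of 20 other well-known lncRNAs, 18 could be matched to a gene of their own. Of these, 6 had a peak (33.3%, against 13.3% over all RefSeq lncRNA genes). They too were chosen as known RNAs, so the shares are set side by side only as a description. Of the 6, 5 were on the minus strand, as were 478 of the 695 listed lncRNA genes. LINC00511 (3 peaks, 6.3e-36), HOTAIR (3 peaks, 1.6e-21) and FTX (3 peaks, 2e-18) had the strongest scores. HOTAIR guides chromatin-silencing complexes and FTX lies at the X-inactivation centre. FENDRR had 5 peaks that together covered 1620 bases, with a strongest score of 2e-12. The single JPX peak (0.00054) and the weakest FTX peak (0.00056) shared 151 bases on opposite strands. The longest FTX peak (870 bases, 1.6e-12) likewise shared 851 bases with a RAB11FIP1P1 peak of the same score, whereas the strongest FTX peak had no partner. NORAD had a stronger score than every gene of these 2 lists, and MALAT1 did too. This holds only for the genes chosen for the lists. XIST and PCAT1, named after their values had been seen, were on neither list and had stronger scores than NORAD. XIST had a peak with a −log10 score of 199 and others that were stronger, and the strongest PCAT1 peak reached 298. Of the 695 listed lncRNA genes, 13 were at least as strong as NORAD and 58 at least as strong as MALAT1, themselves included.

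Of 12 genes for paraspeckle proteins, 10 had a peak (83.3%), against 42.7% over all protein-coding genes. These genes were taken by name with earlier results of these data known, and their expression is not given. The shares are therefore set side by side only as a description. The strongest peak reached the list median in 7 of the 10, against 60.7% over all listed genes. It did not in NEAT1 itself, and it did in 42.1% of listed plus-strand genes and 43.3% of listed lncRNA genes. SFPQ had 3 peaks, 1 of which was listed with a score of 0, too small to be stored. HNRNPM (3 peaks, 1e-239) and PSPC1 (2 peaks, 1e-71) followed, and NONO had 2 peaks (2.5e-22). On the opposite strand, ENSG00000279827 had a peak (1e-237) that overlapped the strongest HNRNPM peak by 219 bases. NUDT21 was among those without a peak. Of the 4 genes for NORAD-binding proteins, 3 had a peak, among them RBMX (2 peaks, 1e-118) and PUM2 (1 peak, 2.5e-13), and KHDRBS1 had none.

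**Figure D5:**
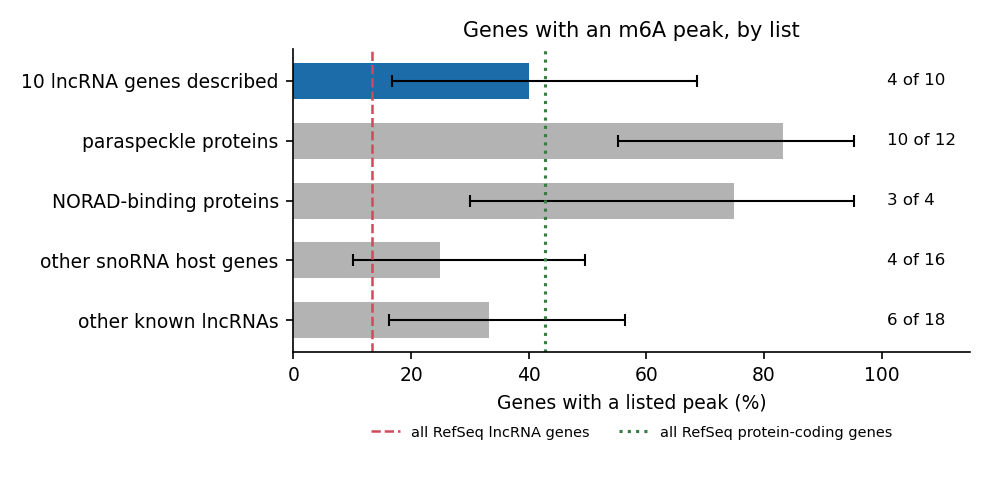
Share of genes with a listed peak (x axis, %) in each list, with 95% Wilson intervals as error bars and the counts at the right. The dashed line marks all RefSeq lncRNA genes (13.3%) and the dotted line all RefSeq protein-coding genes (42.7%). The 10 lncRNA genes described (4 of 10) lie above the first line, near the second, and the paraspeckle protein genes (10 of 12) lie above both.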

How the data were processed

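m6A-seq libraries of MDA-MB-231 poly(A) RNA (2 input, 2 IP) were grouped by title. Per the labels and methods, the authors aligned reads with STAR to GENCODE transcript annotations (hg38), called peaks with exomePeak at default settings and kept enriched peaks that passed an FDR threshold. The deposited score was taken as a p-value. No read depth is given, so it is unknown and no precision can be derived from it.

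Coordinates were written from 1. Gene IDs were matched without version to symbols (10103 of 10140), and symbols to RefSeq spans and biotypes on GRCh38.p14 (9093). Peaks of a gene sharing at least 1 base on the same strand were merged (20261 to 20019). Partners shared at least 1 base of blocks on opposite strands. Positions are peak midpoints along the RefSeq span, for all member peaks and for those peaks of other lncRNA genes that lay wholly inside it. A score of 0 was set to a −log10 of 323. Promoter windows came from RefSeq and matched MALAT1 (2 windows), NORAD and TUG1 among members with peaks. Shares have 95% Wilson intervals, which cover counting error only. No test between groups was possible.

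Named genes were all members, genes whose peaks overlap theirs, their neighbours, and 4 lists of related genes, with the 3 strongest of each. Some genes of these lists are not reported here. Genes added after their values were seen are marked so. Members and lists were chosen with earlier results of these data known. As a check of the cell line label, VIM and EGFR had peaks, but of the receptors and adhesion genes expected to be low, ERBB2 did too (3 peaks). CD44, AXL, KRT18, ESR1, PGR and CDH1 had none. Peaks do not measure expression, so this does not check the label.

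Alternatives were merging, a score limit, the first part of the list, the overlap rule, position and rank. Scripts were run in Python 3.11.15 with SciPy 1.17.1 and tested on simulated peaks.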

Additional observations from a re-analysis of the deposited data

How the results depend on the processing

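Under the alternatives tried, 4 of 10 genes had a peak when only the first part was used, and 3 did with peaks at or under the list median. The 10 merged member peaks were 12 without merging, 10 in the first part and 4 at or under the median. The partner of TUG1 was the only one under every overlap rule. The median midpoint of 18.5% of the span became 20.3% with the strongest peak of each gene and 9.51% with MALAT1 measured from its second start, an alternative chosen after seeing the data. The share of genes with a score at or under that of the member depended on the comparison. Against genes of the same strand it was 7.59% for MALAT1, 58.0% for NEAT1, 24.1% for TUG1 and 13.0% for NORAD, in place of 22.8%, 72.3%, 46.0% and 9.32% against all genes. Against lncRNA genes it was 8.35%, 56.7%, 24.7% and 1.87%, and against lncRNA genes of the same strand without a partner, also chosen after seeing the data, it was 1.04%, 32.3%, 6.19% and 1.19%. In both of these comparisons TUG1, which RefSeq calls protein-coding, was added to the lncRNA genes, and in the last it was added although its strongest peak has a partner, so its value there only sets its score beside theirs. Of each change, the cause was not tested. Positions along the spliced RNA were not run, since no map of exons was used here. No paired analysis was possible because the 4 libraries were combined before peaks were scored, and leaving out a replicate was not possible for the same reason. Since the depth is not known, no detection limit can be given for the 6 genes without a peak.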
